A study of Mus musculus with 56 samples.

Results

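The level of each gene averaged over the day was compared between livers of mice fed by day and mice fed by night, whatever the hour at which the gene peaked. The comparison took all 56 libraries of the gene table, 28 from daytime-restricted feeding (DRF) and 28 from nighttime-restricted feeding (NRF, the reference), with the sampling time as a block. Of 25415 genes listed, 25390 could be tested. All animals were female C57BL/6J mice that entered at 7 weeks of age, were kept under 12 h of light and 12 h of dark with free access to chow for 7 days, and were then fed only by day or only by night for 7 days. The livers were collected at 9 weeks of age, 4 mice per regimen at each of zeitgeber times (ZT, hours after lights on) 0, 4, 8, 12, 16, 20 and 24, which gave 14 groups. Each library is 1 mouse. No group was fed ad libitum during the 7 days of restricted feeding, so a difference between DRF and NRF cannot be assigned to either regimen alone.

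Mice eat mostly in the dark, and feeding by day sets the rhythms of the liver against the light cycle while the central clock stays tied to light. The liver takes up and burns amino acids and fat, makes glucose, urea, bile acids and plasma proteins, and conjugates drugs and steroids for excretion. In mice, many genes of the last kind differ between the sexes, because the pituitary secretes growth hormone in pulses in males and nearly continuously in females, and the transcription factor STAT5B reads that pattern in hepatocytes. Major urinary proteins, several sulfotransferases and many cytochromes P450 belong to this sex-dependent class.

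Levels are given as scaled counts, which are the counts recovered from the deposited values and brought to a common scale close to CPM in each library. They are not corrected for gene length and therefore compare libraries, not genes. Differences are given as the log2 difference of DRF minus NRF, with its standard error (SE), on log2(scaled count + 1), from 28 against 28 libraries, and a gene is called when its adjusted p is under 0.05. The recovered whole numbers summed to 307 to 691 M (mega) per library. This is more than the read depth that the study states, so a recovered count is not a single read and the read depth behind a value is unknown. The mean correlation of a library with the others of its group was 0.950 to 0.984. NRF ZT16 replicate 3 deviated most from its group, with an SD of log2 deviations over genes of 0.398 against 0.335 for the next library. Xist, the RNA of the inactive X chromosome, lay between 68.9 and 181 scaled counts in every library.

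Daily mean levels differed for 1404 genes, which is 5.53% of those tested. The level was higher under DRF for 845 genes (3.33%) and lower for 559 (2.20%). Most of these differences were small. The median log2 difference was 0.19 among the higher genes and -0.21 among the lower ones, beside -0.0017 over all genes tested. Only 11 genes were higher by more than 1 on the log2 scale and 13 were lower by as much. For no gene did the 28 DRF libraries lie entirely above or below the 28 NRF libraries (0.00% of genes), so every difference below is one of overlapping groups. At an unadjusted p under 0.05 there were 4862 genes, and a limma fit of the 14 group means, which takes the change of the regimen difference over the day out of the error, called 1809 higher and 1299 lower (12.2%), with all 1404 among them. List counts below are of the fit with time as a block unless the group-means fit is named. Against the direction of their lists, the latter called 2 serpin A genes higher. It also called 2 methionine and one-carbon, 1 glycogen, 1 triglyceride and 1 amino acid breakdown gene lower.

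**Figure D1:**
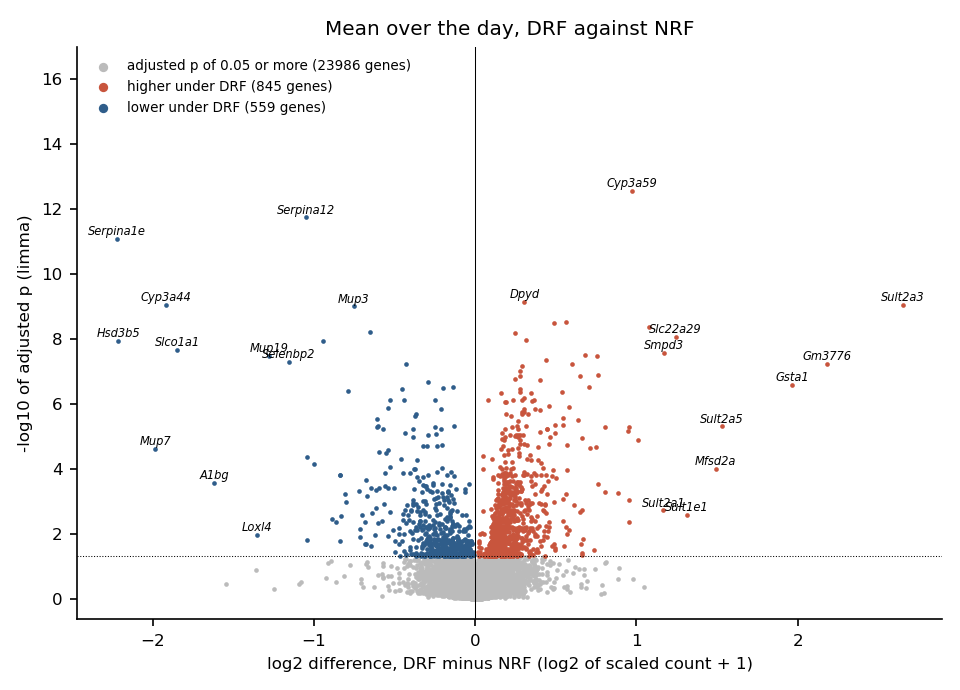
Each point is 1 of 25390 genes, with the log2 difference of DRF minus NRF on the x axis and the -log10 of the adjusted p of the limma fit on the y axis. The 845 genes higher and 559 genes lower under DRF are coloured, the dotted line marks an adjusted p of 0.05, and Sult2a3 and Serpina1e lie at the right and left ends.

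Sulfotransferases, which attach sulfate to steroids, bile acids and phenols, held the gene with the largest rise. Of 18 members tested, 9 rose and 1 fell, and the median log2 difference of the list was 0.32. Sult2a3, a hydroxysteroid sulfotransferase, ranged from 2.68 to 106 scaled counts under DRF with a median of 25.9, and from 0.0306 to 11.6 with a median of 3.55 under NRF. Its DRF level exceeded the NRF median in 27 of 28 libraries. The log2 difference was 2.65 ± 0.265 (SE, adjusted p = 8.73e-10), and it was positive at all 7 times. Sult2a5, of the same subfamily, ranged from 95.5 to 412 under DRF (median 198) and from 4.58 to 172 under NRF (median 77.5), a difference of 1.53 ± 0.23 (adjusted p = 4.92e-06). Sult2a1, which sulfates bile acids and dehydroepiandrosterone, ranged from 1422 to 6095 under DRF (median 3342) and from 62.8 to 4894 under NRF (median 1820). Its difference was 1.17 ± 0.25 (adjusted p = 0.0019). Sult1e1, the estrogen sulfotransferase, had a median of 13.2 under DRF and 5.91 under NRF and rose by 1.31 ± 0.29 (adjusted p = 0.0027), but its DRF values spread from 1.71 to 149. The Sult1e1 difference passed the test at ZT24 only, where it was 3.13, and the call was lost without the ZT24 libraries. Sult2a2, Sult2a4, Sult2a7, Sult1d1 and Sult1a1 also rose, by 0.88, 0.73, 0.67, 0.48 and 0.24. Sult5a1 was the member that fell, by -0.61 ± 0.088 (adjusted p = 2.88e-06), and it is listed among periportal genes. Members of the Sult2a subfamily are close copies, and how reads shared between them were counted is not given in the sources used here, so the split between single members is uncertain.

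Glutathione transferases, which conjugate glutathione to electrophiles, showed the same direction in 11 of 26 members, with 1 lower and a median difference of 0.13. The largest differences were in the alpha class. Gm3776 ranged from 3.62 to 40.9 under DRF (median 15.3) and from 0 to 10.7 under NRF (median 2.93), a difference of 2.18 ± 0.26 (adjusted p = 5.82e-08). Gsta1 ranged from 8.76 to 56.5 under DRF (median 23.7) and from 0.267 to 19.3 under NRF (median 7.27), a difference of 1.97 ± 0.25 (adjusted p = 2.59e-07). Both were higher under DRF at all 7 times. Gsta2 had medians of 52.1 and 32.2 and rose by 0.95 ± 0.14 (adjusted p = 5.23e-06). Gm10639, a further alpha class locus, had medians of 1.40 and 0.525 and rose by 0.67 ± 0.18 (adjusted p = 0.0147).

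Gsta1 and Gm3776 lie near each other on chromosome 9 and have nearly the same promoter, which is shown because the pair are close copies whose reads may be hard to separate. At the best alignment, 284 of 287 bases (98.95%) were identical, whereas Gsta1 and Gsta2 shared 50.84%. The promoters are RefSeq sequences of GRCm38.p6, from 250 bases before to 50 bases after the start, printed 5′ to 3′ on the gene's strand. The capitals mark the only match, on either strand, to TTCNNNGAA, the core recognised by STAT5. That core occurs in 8.30% of 32851 promoters of this length.
Gsta1, chr9:78230419-78230718, plus strand: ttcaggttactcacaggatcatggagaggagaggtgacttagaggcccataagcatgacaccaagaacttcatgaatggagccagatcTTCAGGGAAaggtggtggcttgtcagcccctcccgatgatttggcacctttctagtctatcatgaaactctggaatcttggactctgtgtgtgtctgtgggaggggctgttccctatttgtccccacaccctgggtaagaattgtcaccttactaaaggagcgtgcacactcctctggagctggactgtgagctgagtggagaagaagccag
Gm3776, chr9:78256879-78257178, plus strand: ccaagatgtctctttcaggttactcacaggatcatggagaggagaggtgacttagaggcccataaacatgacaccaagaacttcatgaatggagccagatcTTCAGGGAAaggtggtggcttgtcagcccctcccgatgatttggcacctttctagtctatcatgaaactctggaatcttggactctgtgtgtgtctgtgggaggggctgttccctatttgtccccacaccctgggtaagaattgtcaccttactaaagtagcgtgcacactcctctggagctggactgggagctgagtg
Among the 24 genes with the largest differences, 20 had a promoter in the table, and 3 of these held the core, namely Gsta1, Gm3776 and A1bg. Over genes with a promoter, the STAT5 core was in 6.89% of those higher under DRF and 11.1% of those lower. It was in 8.48% of those not called. No cores of the antioxidant element bound by NRF2 (TGACNNNGC, in 12.4% of all promoters) were found in these 20 promoters. The starts are those of RefSeq and can differ from the annotation behind the levels, as for A1bg. A match is a string of letters and says nothing about binding.

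Several phase I and transport genes rose with them. Cyp3a59, a drug- and steroid-oxidising cytochrome P450, ranged from 148 to 300 scaled counts under DRF (median 220) and from 81.3 to 180 under NRF (median 104). The log2 difference was 0.97 ± 0.0738 (adjusted p = 2.78e-13), and Cyp3a59 was the only gene that passed the test in the same direction at all 7 times. The difference of Cyp3a59 was lowest at ZT4, at 0.62, and highest at ZT0, at 1.35. Cyp2a22 had medians of 64.0 and 31.0 and rose by 1.08 ± 0.11 (adjusted p = 4.17e-09). Cyp3a25 had medians of 1724 and 1147 and rose by 0.57 ± 0.059 (adjusted p = 2.89e-09). Of 41 CYP1, CYP2 and CYP3 enzymes, 14 rose and 5 fell, with a median of 0.083. Cyp2b10, a target of the receptor CAR, rose by 0.96 ± 0.22 (adjusted p = 0.00419), but its regimen difference depended on the time. It passed at ZT8, ZT12 and ZT16, where it was 1.94, 3.17 and 1.5, and was -0.58 at ZT0, which did not pass. Slc22a29, an organic anion transporter gene, rose by 1.24 ± 0.14 (adjusted p = 8.76e-09), with medians of 17.6 and 6.96. Abcc4, an efflux pump for bile acids and conjugates, rose by 0.66 ± 0.1 (adjusted p = 1.11e-05), with medians of 46.8 and 28.2. Of 19 UDP-glucuronosyltransferases only Ugt1a9 passed (5.26%, beside 5.53% of all genes tested), at 0.42 ± 0.093 (adjusted p = 0.00195). For Ugt1a9, 17.99% of the exon bases lie opposite an exon of another gene.

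**Figure D2:**
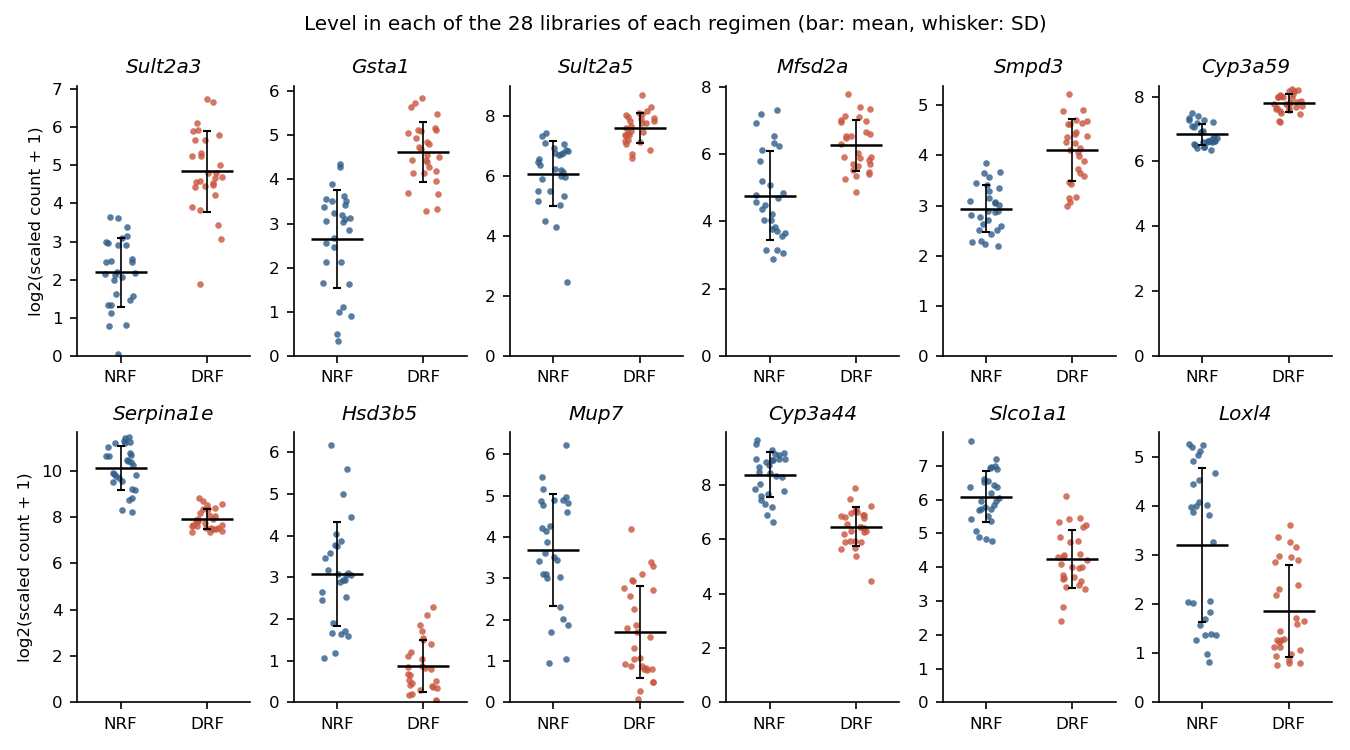
Each point is 1 library, drawn as log2(scaled count + 1) for 12 genes, with NRF and DRF side by side. The bar is the mean and the whisker the SD of 28 libraries. The upper row holds 6 genes higher and the lower row 6 genes lower under DRF, and in each panel the ranges of the regimens overlap.

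Many genes known to be expressed more in male than in female liver fell, and those known to be female-biased rose more often than they fell. Of 28 male-biased genes tested, 14 fell and none rose, with a median log2 difference of -0.36. Over this list the summed level ranged from 2657 to 8432 scaled counts under DRF (median 5313) and from 4778 to 10980 under NRF (median 7679). Serpina1e, a secreted serine protease inhibitor, ranged from 163 to 447 under DRF (median 222) and from 300 to 2779 under NRF (median 1263). The difference was -2.22 ± 0.19 (adjusted p = 8.08e-12). Hsd3b5, a steroid dehydrogenase, ranged from 0.0291 to 3.88 under DRF (median 0.677) and from 1.1 to 70.7 under NRF (median 7.29), a difference of -2.21 ± 0.25 (adjusted p = 1.16e-08). Slco1a1, a transporter of organic anions and steroid conjugates, had a median of 16.9 against 63.7 and differed by -1.85 ± 0.21 (adjusted p = 2.2e-08). Selenbp2, a selenium-binding protein, had medians of 14.6 and 32.8 and differed by -1.16 ± 0.14 (adjusted p = 5.15e-08). Dnaic1, Ces3b, Keg1 and Cyp2u1 also fell, with differences of -0.61, -0.53, -0.50 and -0.40. Among members that did not pass, Cyp7b1 stood at -0.10, Mup20 at -0.02, Cyp2d9 at 0.14 and Cyp4a12a at 0.19.

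Of 38 female-biased genes tested, 11 rose and 4 fell, with a median log2 difference of 0.24. Besides the sulfotransferases Sult1e1, Sult2a1 and Sult2a2, the members that rose were Cyp4a14 (0.95), Hamp2 (0.80), Vldlr (0.68), Cyp17a1 (0.66), Gstt3 (0.50), Cyp2b13 (0.49), Cyp2c39 (0.46) and Cyp2b9 (0.21). Hamp2, a paralog of the iron hormone hepcidin, ranged from 1123 to 4804 under DRF (median 2991) and from 595 to 3271 under NRF (median 1939). For Hamp2, 15.27% of the exon bases lie opposite another gene's exons. The members that fell were Cyp3a44, A1bg, Cyp2a4 and Prlr. Cyp3a44, a steroid-oxidising cytochrome P450, ranged from 21.1 to 236 under DRF (median 86.5) and from 99.3 to 812 under NRF (median 377). Its difference was -1.92 ± 0.19 (adjusted p = 8.71e-10). A1bg, a secreted plasma glycoprotein gene, had medians of 19.4 and 58.3 and differed by -1.62 ± 0.3 (adjusted p = 0.000277), and 16.46% of its exon bases lie opposite another gene's exons. Cyp2a4, a testosterone hydroxylase, differed by -0.84 (adjusted p = 0.00015). Cyp3a41a and Cyp3a41b, which are near-identical copies of each other, stood at 0.02 and 0.01 and did not pass.

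Within NRF the levels of the sex-biased lists varied widely between mice. NRF ZT0 replicate 1 had the highest male-biased and the lowest female-biased level of all libraries, with mean log2 deviations from the average library of 1.10 and -1.30. The same library held the lowest Sult2a1 value, 62.8, and the highest Hsd3b5 value, 70.7. NRF ZT16 replicate 3 followed with 0.73 and -0.51. These libraries and NRF ZT8 replicate 4 held the 3 lowest Sult2a3 values, at or under 0.759 scaled counts. NRF ZT8 replicate 4 was not extreme on the lists, at 0.53 and -0.22, and NRF ZT12 replicate 1, NRF ZT24 replicate 3 and NRF ZT20 replicate 3 had higher male-biased levels. Leaving out the 3 libraries with the lowest Sult2a3 kept the sign of the median of both lists, with 11 male-biased genes lower, 11 female-biased genes higher and 4 lower, and medians of -0.31 and 0.22. It called 7 sulfotransferases higher in place of 9. The 3 libraries were picked by Sult2a3, and NRF libraries with higher male-biased levels than NRF ZT8 replicate 4 stayed in. Leaving them out therefore cannot show how far the list results rest on the NRF mice with the highest male-biased levels.

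**Figure D3:**
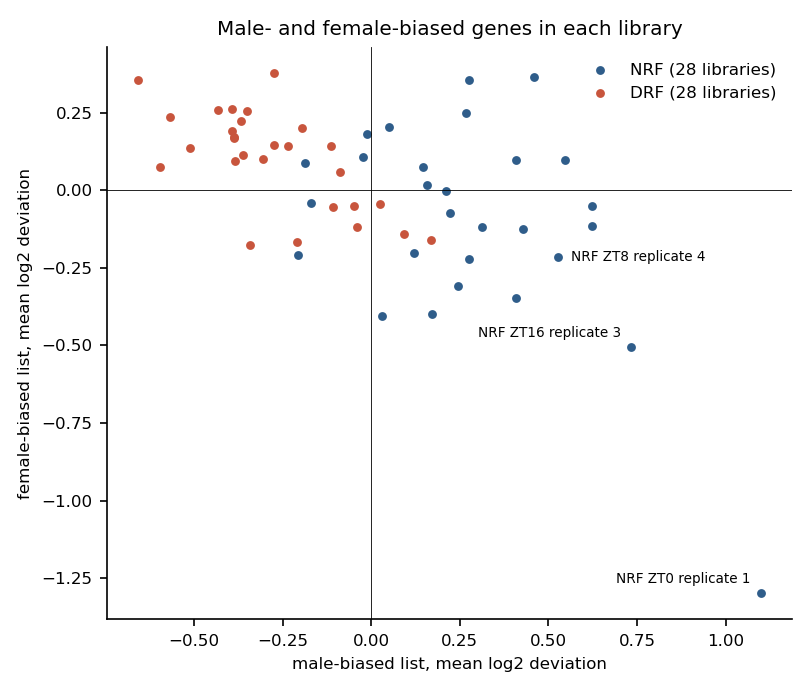
Each point is 1 of 56 libraries, with the mean log2 deviation of 28 male-biased genes on the x axis and that of 38 female-biased genes on the y axis, both against the average library. DRF libraries had medians of -0.32 and 0.14, NRF libraries of 0.26 and -0.062, and the 3 labelled NRF libraries are those with the lowest Sult2a3, of which NRF ZT0 replicate 1 and NRF ZT16 replicate 3 lie at the lower right edge.

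Major urinary proteins, small pheromone carriers that are male-biased as a family, fell in 7 of 20 members and rose in none, with a median of -0.55 and 19 negative differences. Mup3 ranged from 442 to 1032 under DRF (median 662) and from 664 to 1784 under NRF (median 1156). Its difference was -0.75 ± 0.076 (adjusted p = 9.85e-10), passing at 6 of 7 times. Mup7 had medians of 1.75 and 12.4 and differed by -1.99 ± 0.32 (adjusted p = 2.4e-05). Mup19 had medians of 35.1 and 71.4 and differed by -1.28 ± 0.15 (adjusted p = 3.22e-08), and Mup15 had medians of 38.9 and 70.3 and differed by -1.0 ± 0.17 (adjusted p = 7.18e-05). These genes are close copies of each other. The promoters of Mup15 and Mup19 shared 291 of 294 bases (98.98%), whereas Mup15 and Mup3 shared 46.85% and Mup7 and Mup19 shared 31.31%. The transcripts were not compared, and promoters do not show how well reads can be assigned. How reads shared between copies were counted is not given in the sources used here, so the split between single members is uncertain.

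In the serpin A family of secreted protease inhibitors, 8 of 21 members fell and none rose, with a median of -0.097. Serpina12, known as vaspin, fell from a median of 2.65 under NRF to 0.864 under DRF, a difference of -1.05 ± 0.085 (adjusted p = 1.78e-12), and passed at 6 times. Serpina3k had medians of 2649 under DRF and 3707 under NRF and differed by -0.53 ± 0.12 (adjusted p = 0.00219). Serpina1c differed by -0.25 ± 0.034 (adjusted p = 7.43e-07), with 31.5% of its exon bases opposite another gene's exons. The Serpina1 copies did not move alike. Serpina1e differed by -2.22 and Serpina1a by -0.17, whereas Serpina1b and Serpina1d stood at 0.05 and 0.03 and did not pass. Reads of these copies are also hard to assign.

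Of 22 genes of the growth hormone and insulin-like growth factor axis, 3 fell (13.6%, beside 2.20% of all genes) and none rose. The regimen difference of 17 of them depended on the time, beside 38.0% of all genes tested. The group-means fit called 4 of the 22 lower and 2 higher. Igf1, the main hormone made in response to growth hormone, had medians of 804 and 998 and differed by -0.24 ± 0.067 (adjusted p = 0.0199). Igfbp2, which binds it in plasma, had medians of 51.8 and 79.6 and differed by -0.46 ± 0.077 (adjusted p = 4.86e-05). Prlr, the prolactin receptor, had medians of 104 and 130 and differed by -0.30 ± 0.048 (adjusted p = 2.03e-05). The growth hormone receptor Ghr stood at -0.06, Stat5b at 0.00, and the feedback genes Socs2 and Cish at -0.37 and -0.06, none of which passed. Bcl6, a male-biased repressor, stood at -0.37 ± 0.26 and did not pass either.

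Of 54 genes that break down amino acids, 31 rose and none fell, with a median log2 difference of 0.18 and 49 positive differences. Oat, ornithine aminotransferase, ranged from 852 to 2469 under DRF (median 1719) and from 612 to 1361 under NRF (median 989). Its difference was 0.75 ± 0.088 (adjusted p = 3.22e-08). By time, Oat was highest under DRF at ZT24, at 2118 ± 169 (SD, n = 4) against 1103 ± 232 under NRF, whereas at ZT8 the regimens lay at 1133 and 1129. Cth, which cleaves cystathionine, had medians of 857 and 629 and rose by 0.48 ± 0.085 (adjusted p = 0.000107). Tdo2, which opens the tryptophan ring, rose by 0.41 ± 0.07 (adjusted p = 6.7e-05). Gcdh of lysine breakdown ranged from 213 to 270 under DRF and from 170 to 239 under NRF, and rose by 0.24 ± 0.027 (adjusted p = 6.47e-09). Pcca, the propionyl-CoA carboxylase subunit, rose by 0.32 ± 0.035 (adjusted p = 1.09e-08). Sds, serine dehydratase, rose by 0.58 ± 0.14 (adjusted p = 0.00781), but 29.6% of its exon bases lie opposite another gene, and at ZT4 it was lower under DRF by -0.80. Csad, Cbs and Agxt had negative differences, of -0.35, -0.14 and -0.14, that did not pass.

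The urea cycle, which disposes of the nitrogen, went the same way. Of 15 genes, 10 rose, none fell and all 15 differences were positive, with a median of 0.30. Asl, which splits argininosuccinate, ranged from 309 to 846 under DRF (median 565) and from 215 to 683 under NRF (median 369), a difference of 0.55 ± 0.08 (adjusted p = 4.48e-06). Arg1, arginase, had medians of 960 and 808 and rose by 0.32 ± 0.054 (adjusted p = 5.06e-05). Rhbg, an ammonia transporter of pericentral hepatocytes, rose by 0.41 ± 0.074 (adjusted p = 0.000157), and Gls2, liver glutaminase, rose by 0.35 ± 0.063 (adjusted p = 0.000169). Cps1, the entry enzyme, rose by 0.22 ± 0.058 (adjusted p = 0.012), and Ass1 by 0.31 ± 0.077 (adjusted p = 0.00758). Glul, which makes glutamine in pericentral cells, stood at 0.04 and did not pass.

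In the methionine and one-carbon cycle 12 of 29 genes rose and none fell, with a median of 0.11. Gnmt, which spends S-adenosylmethionine on glycine, ranged from 481.2 to 1032 under DRF (median 781) and from 325 to 778 under NRF (median 495). It rose by 0.60 ± 0.072 (adjusted p = 6.06e-08). Mat1a, which makes S-adenosylmethionine, rose by 0.44 ± 0.052 (adjusted p = 4.41e-08), with medians of 4440 and 3180. Ahcy, which removes the product, rose by 0.39 ± 0.063 (adjusted p = 2.05e-05). Dpyd of pyrimidine breakdown, which belongs to none of these lists, had medians of 10490 and 8436 and rose by 0.30 ± 0.03 (adjusted p = 7.1e-10).

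A smaller share of the genes of glucose handling rose. Of 22 gluconeogenesis genes 7 rose, of 31 glycolysis and glucose uptake genes 7 rose and of 19 glycogen genes 3 rose, with none lower in any of the 3 lists. The medians were 0.15, 0.086 and 0.049. Gpt2, mitochondrial alanine aminotransferase, ranged from 432 to 1072 under DRF (median 704) and from 222 to 877 under NRF (median 449), and rose by 0.64 ± 0.092 (adjusted p = 3.14e-06). Khk, which phosphorylates fructose, rose by 0.35 ± 0.079 (adjusted p = 0.00314). Ugp2, which makes UDP-glucose for glycogen, rose by 0.57 ± 0.091 (adjusted p = 1.86e-05). Pck1, the entry enzyme of gluconeogenesis, had a larger difference of 0.81 ± 0.28 that did not pass (adjusted p = 0.0765), and G6pc stood at 0.39 ± 0.14 (adjusted p = 0.103).

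Fatty acid oxidation and ketogenesis rose in 19 of 41 genes and fell in none, with a median of 0.20. Acadm, the medium-chain acyl-CoA dehydrogenase, ranged from 206 to 310 under DRF (median 252) and from 147 to 246 under NRF (median 185). It rose by 0.40 ± 0.05 (adjusted p = 1.82e-07). Acaa1b, a peroxisomal thiolase, had medians of 635 and 442 and rose by 0.46 ± 0.071 (adjusted p = 1.02e-05). Acot2 rose by 0.50 ± 0.092 (adjusted p = 0.000188). Cpt1a, the gate of mitochondrial uptake, stood at 0.40 ± 0.17 and did not pass (adjusted p = 0.169). The ω-hydroxylases Cyp4a14, Cyp4a10 and Cyp4a31, which are targets of PPARα, rose by 0.95 ± 0.14, 0.71 ± 0.11 and 0.54 ± 0.11, whereas Cyp4f14 differed by -0.35 ± 0.064. Of 32 genes of triglyceride synthesis and lipid droplets 10 rose and none fell. Cd36, a fatty acid transporter, ranged from 345 to 764 under DRF (median 533) and from 251 to 551 under NRF (median 355), and rose by 0.54 ± 0.071 (adjusted p = 4.37e-07). Vldlr, a receptor for triglyceride-rich lipoproteins, had medians of 15.1 and 9.27 and rose by 0.68 ± 0.079 (adjusted p = 3.13e-08).

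Among 22 lipogenesis genes, Elovl3 was the 1 that passed (4.55%, beside 5.53% of all genes tested), at -0.43 ± 0.13 (adjusted p = 0.0413). Its call was lost in 29 of 76 alternative ways of processing. The group-means fit called 1 of these 22 higher and 3 lower. Cholesterol synthesis and uptake had none of 27 genes past the additive limma fit, with a median of -0.14 and 20 negative differences. Of those 27, 2 had an unadjusted p under 0.05, and the group-means fit called 4 lower and 1 higher. Of 20 bile acid synthesis genes 4 rose and 2 fell, led by Akr1d1, a steroid reductase of that pathway, at 0.27 ± 0.055 (adjusted p = 0.00079). Cyp7a1, the rate-limiting enzyme, had medians of 162.8 and 160.5, a difference of 0.03 ± 0.21 that did not pass.

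Of 84 nuclear-encoded respiratory chain subunits 31 rose and none fell, the median log2 difference was 0.14, 79 differences were positive and the largest was 0.28. Sdhb, the iron-sulfur subunit of complex II, ranged from 214 to 301 under DRF (median 261) and from 156 to 321 under NRF (median 216), and rose by 0.26 ± 0.051 (adjusted p = 0.000513). Sdhc rose by 0.28 ± 0.061 (adjusted p = 0.00221) and Sdha by 0.16 ± 0.021 (adjusted p = 4.56e-07). The regimen difference depended on the time for 12 of these 84 genes, beside 38.0% of all genes tested. Mitochondrial ribosomal proteins rose in 4 of 80 members (beside 3.33% of all genes), with a median of 0.051, and cytosolic ribosomal proteins in none of 90 by limma (6 at an unadjusted p under 0.05 and none in the group-means fit), with a median of 0.047. In autophagy 5 of 35 rose.

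**Figure D4:**
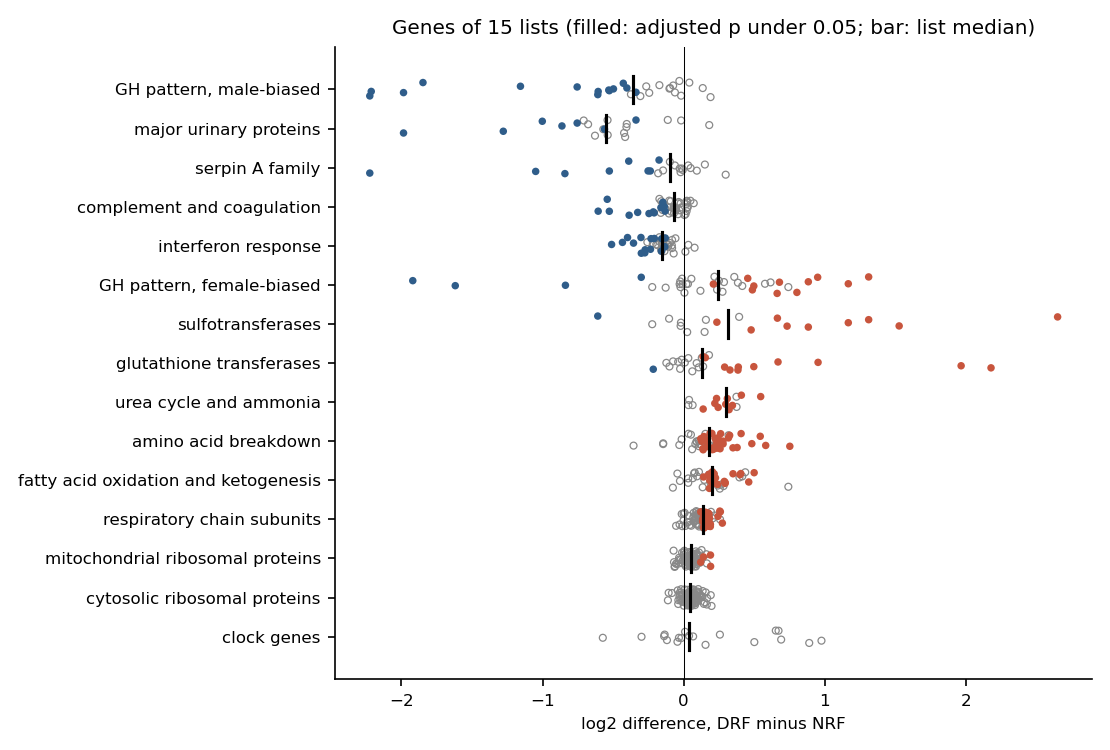
Each circle is a gene of 1 of 15 lists, placed by its log2 difference of DRF minus NRF on the x axis, filled where the gene was called, and the bar is the median of the list. Male-biased genes and urinary proteins lie to the left, sulfotransferases and glutathione transferases reach far to the right, and most members of the amino acid, urea cycle, fatty acid oxidation and respiratory chain lists lie right of 0.

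Complement and coagulation factors, which the liver secretes into plasma, were lower where they passed the test. Of 47 complement and coagulation genes 12 fell and none rose, with a median of -0.071 and 36 negative differences. C8a, a chain of the membrane attack complex, ranged from 299 to 570 under DRF (median 459) and from 472 to 1360 under NRF (median 630), a difference of -0.61 ± 0.089 (adjusted p = 4.92e-06). C8b and C9 of the same complex differed by -0.53 ± 0.091 and -0.39 ± 0.058, and C8a and C8b are also on the male-biased list. F11, coagulation factor XI, had medians of 69.1 and 94.0 and differed by -0.54 ± 0.075 (adjusted p = 1.34e-06). Of 34 acute phase genes 5 fell and 2 rose. Apcs, serum amyloid P, differed by -0.57 ± 0.085 (adjusted p = 5.84e-06), whereas Orm2, an acid glycoprotein, rose by 0.56 ± 0.14 (adjusted p = 0.00623). Of 28 apolipoprotein and lipoprotein assembly genes 5 rose and 2 fell. Apoa5, which promotes triglyceride clearance, rose by 0.55 ± 0.078 (adjusted p = 2.68e-06), and Sort1, a sorting receptor, differed by -0.54 ± 0.088 (adjusted p = 2.68e-05). For Apoa5, 20.78% of the exon bases lie opposite an exon of another gene. Enho, the precursor of the peptide adropin, ranged from 1.79 to 6.34 under DRF (median 3.47) and from 3.51 to 12.7 under NRF (median 6.61), and differed by -0.79 ± 0.1 (adjusted p = 4.05e-07).

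Of 41 interferon-stimulated genes 16 fell and none rose, with a median of -0.16 and 38 negative differences. Mx2, a member of the antiviral GTPase family that is annotated as a polymorphic pseudogene, had medians of 3.16 under DRF and 4.61 under NRF. It ranged from 1.64 to 4.81 under DRF and from 2.72 to 8.65 under NRF, a difference of -0.43 ± 0.066 (adjusted p = 8.02e-06). Gbp6, Ifit1 and Ddx60 differed by -0.51 ± 0.13, -0.40 ± 0.086 and -0.35 ± 0.076. The count dropped to 11 without NRF ZT16 replicate 3, and to 10 without the 3 NRF libraries named above. It was 22 once a trend on exon length was removed from each library and 25 in the group-means fit. The antigen presentation genes B2m, H2-D1 and H2-K1 stood at 0.01, 0.03 and 0.08, with none called.

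Clock genes, whose phase the feeding time shifts, held no daily mean difference that passed. None of 19 was called by limma and 5 had an unadjusted p under 0.05. The regimen difference of all 19 nevertheless depended on the time, beside 38.0% of all genes tested. Dbp, a clock output factor, stood at 0.98 ± 0.47 (adjusted p = 0.238), Nr1d2, a repressor of the clock, at 0.89 ± 0.33 (adjusted p = 0.109), and Npas2, an activator, at -0.57 ± 0.27 (adjusted p = 0.23). The additive fit counts the shift over the day as error. The group-means fit, which does not, called 6 of the 19 higher and 3 lower. Ribosome biogenesis showed 44 of 48 genes with a time-dependent difference, beside the same 38.0%. None of the 48 was called in either limma fit (1 at an unadjusted p under 0.05), with a median of -0.0005. Of 23 heat shock genes, 26 glucocorticoid response genes and 26 immediate early genes none was called in the additive limma fit either. At an unadjusted p under 0.05 there were 3, 4 and 1 of them, and the group-means fit called 4, 5 and 1.

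How even the differences were over the day varied. Of the 1404 genes, 652 had a regimen difference that depended on the time (411 higher and 241 lower under DRF) and 752 did not pass that test. Of all genes tested, 38.0% passed it, so time dependence is common in these data and not particular to the called genes. At single times, the share of all genes that passed ranged from 12.9% at ZT8 to 20.2% at ZT4. Only 257 of the 845 higher genes and 170 of the 559 lower genes had differences of 1 sign at all 7 times. By single time points, 282 called genes passed at 4 or more times, 377 at 1 time and 154 at none. For 121 called genes the regimens differed in both directions at different times. Mfsd2a, a transporter of lysophosphatidylcholine, is one of these. Its medians were 70.4 under DRF and 21.99 under NRF (log2 difference 1.49 ± 0.26, adjusted p = 0.000103). At ZT0 it stood at 167 ± 38.8 under DRF and 11.5 ± 3.84 under NRF (SD, n = 4), but at ZT12 at 51.7 ± 7.65 and 128 ± 28.4. Loxl4, a matrix cross-linking enzyme, was lower under DRF on average by -1.35 ± 0.35 (adjusted p = 0.0105), yet differed by 1.82 at ZT12 and by -4.03 at ZT0. Because ZT0 and ZT24 are the same hour of the day and both enter the mean, genes that differ at that hour weigh more. Krt23, a keratin, differed by 2.07 at ZT0 and 2.17 at ZT24, but by 0.10 at ZT8, and its daily mean difference was 1.01 ± 0.16 (adjusted p = 1.24e-05). Cdh1, the adhesion protein of periportal hepatocytes, differed by -0.60 ± 0.098 (adjusted p = 3.08e-05) and was 0.37 higher at ZT12.

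**Figure D5:**
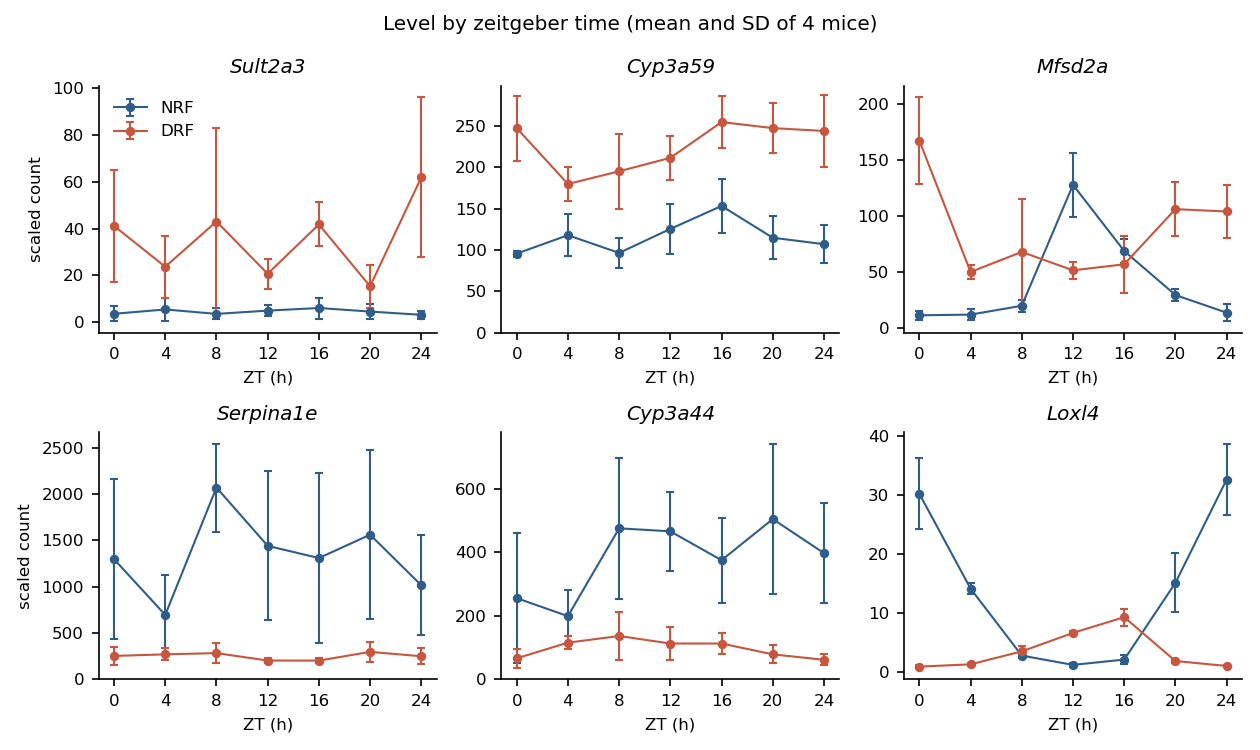
The level of 6 genes in scaled counts is plotted against ZT in hours, with the mean and SD of 4 mice for DRF and NRF. Sult2a3 and Cyp3a59 stay higher and Serpina1e and Cyp3a44 lower under DRF at every time, whereas Mfsd2a and Loxl4 change sides during the day.

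Smpd3, a sphingomyelinase, was among the genes that kept 1 direction. It ranged from 6.95 to 36.6 under DRF (median 17.4) and from 3.56 to 13.5 under NRF (median 6.42), and rose by 1.17 ± 0.13 (adjusted p = 2.63e-08), with larger differences at some times than at others. BC021767, annotated as a transcribed unprocessed pseudogene, differed by -0.95 ± 0.11 (adjusted p = 1.11e-08), with medians of 3.08 and 6.97. Aox3, an aldehyde oxidase, had medians of 373 and 559 and differed by -0.40 ± 0.087 (adjusted p = 0.00198), although it was 0.51 higher at ZT20. Ppargc1a, a coactivator of fasting metabolism, rose by 0.44 ± 0.11 (adjusted p = 0.0056), with 1.22 at ZT24 and -0.56 at ZT12. Genes of the zones of the lobule were also counted. Of 25 periportal genes 10 rose and 4 fell, and of 27 pericentral genes 4 rose and none fell. Among all genes tested, 3.33% were higher and 2.20% lower. The zone lists share members with the urea cycle and amino acid lists, such as Asl and Sds (periportal) and Rhbg and Oat (pericentral). The zone counts are therefore not a result separate from those lists.

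The cell types of the liver were compared by their markers, since in bulk tissue fewer cells of a type and less RNA per cell cannot be told apart. The 11 hepatocyte markers summed to 131500 to 171500 scaled counts under DRF and 124000 to 188100 under NRF. Single members differed in both directions, and 36.4% were called, beside 5.53% of all genes. Cyp3a11 and Cps1 rose, Apoa1 and Serpina1c fell, and the median was -0.0175. The Apoa1 call was lost in 34 of 76 alternative ways of processing. None of 16 sinusoidal endothelial and none of 16 Kupffer cell markers was called by either limma fit, and 1 and 0 of them had an unadjusted p under 0.05. Of 16 stellate cell markers 1 fell (6.25%, beside 2.20% of all genes), and of 9 cholangiocyte markers 1 rose (11.1%, beside 3.33%). A single call in a list this short is not read as a result about the cell type. Red cell markers were higher under DRF, 5 of 8 by test and all 8 by sign, with a median of 0.39. Their summed level ranged from 570.6 to 2049 under DRF (median 1107) and from 472.7 to 1359 under NRF (median 743.6). Hba-a1, a globin, rose by 0.61 ± 0.13 (adjusted p = 0.00125). The part of red cells in the other results was not tested. Among 3 of 14 pancreatic acinar markers that could be tested, Cela1 differed by -0.43 ± 0.051, with medians of 2.02 and 3.10 scaled counts.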

How the data were processed

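RNA of 56 mouse livers was depleted of ribosomal RNA and read as strand-specific 150 bp pairs. The submitters' processing notes name CASAVA 1.8, featureCounts 1.5.0-p3, mm10 and GRCm38.p6. The aligner, and whether counting used strand, are not given in the sources used here. The authors deposited gene values named TPM that are not linear in reads, so they were treated as a score: in low genes, value times exon length followed the natural log of 1 plus a scaled whole count. Inverting this relation gave scaled counts summing to 842613 to 1051395 per library. Of held-out values up to 100 counts, 97.5% came out whole within 0.05. Their sums exceed the read depth that the study states, so what a unit stands for is unknown and no count test was run. Of 25415 genes, 25 were left out because no consistent length was found. The transcript and circular RNA tables were not used.

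log2(scaled count + 1) was fitted with limma 3.58.1 (R 4.3.3) with ZT as a factor of 7 levels plus regimen, two-sided, with Benjamini-Hochberg adjustment over 25390 genes. A fit of the 14 group means gave the time dependence (6 interaction terms) and the difference at each time. The script was tested on simulated data. Named genes were the 12 with the largest difference and the 8 with the largest t in each direction, at a mean of at least 5 scaled counts in a regimen, and up to 4 called members of each of 64 gene lists. Others are given as examples of their list, and a few that met the rule are not reported here. The members and lists were chosen with earlier results of these data known. Replicate numbers did not pair libraries, as same-numbered libraries of DRF and NRF had a mean correlation of deviations of -0.021 over 28 pairs. Each library is 1 mouse by its label, and no batch is labelled.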

Additional observations from a re-analysis of the deposited data

Results flagged for a closer look

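The regimen difference changed over the day for 59 of the 135 genes named in the text, by limma's F test of the 6 regimen by time terms with adjustment over all genes, beside 38.0% of all genes tested. Adjusted p-values are in brackets. Among genes higher under DRF these were Mfsd2a (5.74e-12), Ppargc1a (1.23e-09), Pdk2 (1.31e-09), Sds (2.72e-09), Krt23 (4.51e-09), Cyp2b10 (5.29e-07), Ugp2 (6.15e-07), Gpt2 (1.12e-06), Apoa5 (4.14e-06), Abcc4 (4.62e-05), Arg1 (8.02e-05), Asl (9.31e-05), Cyp2b13 (2.19e-04), and Ahcy (3.23e-04). The test also passed, less far, for Tdo2 (2.63e-03), Sult1a1 (3.49e-03), Smpd3 (4.85e-03), Sult2a4 (5.00e-03), Akr1d1 (5.26e-03), Oat (6.61e-03), Mat1a (9.20e-03), Acot2 (2.13e-02), Cth (2.32e-02), Acadm (2.82e-02) and Gm3776 (3.16e-02).

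Among genes lower under DRF these were Loxl4 (1.59e-26), Cdh1 (1.60e-11), Aox3 (7.96e-08), Cyp2a4 (4.42e-07), Apcs (1.39e-06), A1bg (8.87e-06), Gbp6 (1.20e-04), Cyp4f14 (2.16e-04), Elovl3 (2.33e-04), Serpina12 (2.02e-03), F11 (2.41e-03), Prlr (2.62e-03), Cyp2u1 (6.06e-03), Ddx60 (6.85e-03), Enho (9.59e-03), Mx2 (1.18e-02) and Igf1 (3.53e-02). Among genes whose daily mean did not pass these were Dbp (2.02e-28), Nr1d2 (9.17e-27), Npas2 (3.98e-23), Cbs (2.27e-20), Cpt1a (6.04e-19), Stat5b (3.54e-12), Pck1 (1.41e-11), Agxt (1.77e-08), Cyp7a1 (2.33e-06), Csad (4.61e-05), Glul (3.00e-04), Socs2 (3.56e-04), H2-K1 (1.15e-03), H2-D1 (7.87e-03), Ghr (8.91e-03), Cish (1.65e-02) and Cyp7b1 (2.08e-02).

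In 5 of 84 groups of 4 mice behind the plotted time courses, 1 mouse stood apart, its gap to the nearest other taking a larger part of the range of the group (given in brackets) than Dixon's 95% critical value. Chance gives this in about 1 of 20 groups. Serpina1e in NRF ZT16 (0.883) was 2685 scaled counts in replicate 3 and at most 949 in the others. Cyp3a44 was low in DRF ZT0 (0.860), at 21.1 in replicate 1, and high in NRF ZT4 (0.834), at 321.7 in replicate 1. Cyp3a59 in NRF ZT20 (0.851) was 153.8 in replicate 4, and Loxl4 in DRF ZT4 (0.932) was 0.822 in replicate 1.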

How the results depend on the processing

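The counts of genes higher and lower under DRF (845 and 559) depended mainly on how time entered. The fit of the 14 group means gave 1809 and 1299. Weighting ZT0 and ZT24 together as 1 time within that group-means fit lowered these to 1387 and 897. Leaving out ZT0 gave 499 and 281, leaving out ZT12 gave 1725 and 1152, leaving out ZT8 gave 868 lower, and leaving out ZT24 gave 310 lower. On log2 of the deposited value plus 0.1, 329 were lower. The cause of these shifts was not tested. Leaving out 1 library at a time gave 731 to 976 higher and 451 to 667 lower, with the lowest counts without DRF ZT24 replicate 3. Removing the 3 NRF libraries with the lowest Sult2a3, an alternative chosen after seeing the data, gave 685 and 417. A replicate block, for numbers that do not pair the libraries, gave 813 and 560. A 24 h cosine and sine, other pseudocounts, a linear scale, a filter on means, median-of-ratios scaling and a length correction kept both counts within 1.5 times. Median-of-ratios scaling moved the median difference of all genes by -0.0003 and the length correction by -0.0032. No named gene changed direction under any of 76 alternatives. Of 144 named genes, 95 kept their call in all, and 49 lost it in some. Pdk2 and Hbb-bs lost it most often, in 45 and 46 of the alternatives. Of the genes in the text, Apoa1 lost it in 34 and Elovl3 in 29.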
